A study of Sus scrofa with 8 samples.

Results

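The insulin-like growth factor (IGF) system was followed in cultured pig muscle cells through 10 genes. They encode the ligands IGF1 and IGF2, the receptors IGF1R, IGF2R and INSR, and the secreted binding proteins IGFBP2 to IGFBP6. All 10 were found among the 25285 genes of the deposited table, 9 by symbol and 1, IGF1, by its Ensembl identifier, since the table spells it IGFI. The cells were primary cells from skeletal muscle of pigs of the strain LYD, which the protocol calls MuSCs, and no transgene or drug is named. Of the 8 libraries, 4 came from undifferentiated cells and 4 from differentiated cells, with 2 female and 2 male libraries in each state. No label gives the animals' age, the length of differentiation, the culture medium or whether replicates came from separate animals, so a p-value here speaks of the spread among the libraries at hand, which may be technical. Values are FPKM (fragments mapped to a gene, scaled by transcript length and by library size). They allow levels of different genes to be set side by side as far as each gene model is complete.

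IGF1 and IGF2 are small secreted proteins that bind the receptor tyrosine kinase IGF1R. The related insulin receptor INSR also binds IGF2, whereas IGF2R carries IGF2 to lysosomes and does not signal as a kinase. Binding proteins hold the ligands outside the cell and can block or prolong their access to IGF1R. In muscle the system is known both for driving myoblast proliferation and, at a later stage, for promoting differentiation and fiber growth through PI3K, AKT and mTOR.

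The number of reads is unknown, because whole fragment counts were not recovered from FPKM. An estimate of relative depth from low values, with differentiated female replicate 1 set to 1, ran from 1.64 to 2.35 in undifferentiated libraries. In differentiated ones it ran from 1 to 1.61, so these appeared to be the shallower ones on the whole. The estimate is rough, since in undifferentiated libraries it rests on the commonest ratio, shared by 22 to 28 of 972 to 1266 low genes. Muscle markers were checked against the labels. MYOD1, a myogenic transcription factor, lay between 156 and 221 FPKM in undifferentiated and between 80.1 and 105 FPKM in differentiated libraries, and ACTA1, skeletal muscle actin, was at 0.417 to 1.28 and 3763 to 5179 FPKM. PAX7 and TTN were not analysed here. In a test of 12963 genes, 2339 rose and 4137 fell with differentiation (limma, Benjamini-Hochberg adjusted p under 0.05). After median-ratio scaling these were 3156 and 3005, with the median difference of all tested genes shifted by 0.19 on the log2 scale. Without that scaling, 6 of 7 tested myogenic and myotube markers rose and 1 fell, against 18.0% and 31.9% of all tested genes. Of these 7, 2 reached the mean of 1 FPKM needed for the test only through the differentiated libraries. The list summed to 430 to 753 FPKM in undifferentiated and 10529 to 15000 FPKM in differentiated libraries. Of 3 tested satellite cell markers 2 rose and 1 fell.

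Markers of other cell types were also present in part. Summed FPKM of fibroblast and fibro-adipogenic markers ranged from 107 to 321 in undifferentiated and from 431 to 1129 in differentiated libraries, with 5 of 8 listed genes reaching 1 FPKM when averaged across all libraries. Of these 5 tested genes 2 rose, 0 fell and 3 were not called (limma adjusted p under 0.05), against 18.0% of all tested genes that rose. Of the 5, 2 reached that mean only through the differentiated libraries. COL1A1 alone lay between 22.0 and 179 FPKM and between 165 and 783 FPKM, PDGFRA reached at most 4.50 FPKM, and THY1 was not analysed here. Smooth muscle and pericyte markers summed to 17.5 to 40.1 and to 1020 to 1220 FPKM. In differentiated cells nearly all of that was ACTA2 (993 to 1166 FPKM), an actin that immature muscle cells also make. MYH11 stayed under 0.1 FPKM. All 4 tested genes of this list, ACTA2, CNN1, PDGFRB and CSPG4, rose (limma adjusted p under 0.05), against 18.0% of all tested genes. Of these 4, 2 reached the mean of 1 FPKM needed for the test only through the differentiated libraries. Their rise was thus in part set by that filter, and the ranges of the states were separate for 3 of the 4. Endothelial markers summed to 2.60 to 6.31 and 2.56 to 7.53 FPKM, immune markers to at most 17.0 and 4.30 FPKM, and Schwann cell markers to 4.30 to 7.21 and 2.34 to 3.68 FPKM. Adipocyte markers summed to at most 1.85 FPKM. SOX10, PTPRC, KDR and PLIN1, defining genes of the Schwann, immune, endothelial and fat lineages, were each under 1 FPKM in every library. Other members of these lists were higher, and the Schwann, immune and endothelial lists each held 1 tested gene. S100B (Schwann) and CD14 (immune) fell, with log2 differences of -1.02 and -2.24 (limma adjusted p under 0.05), as did 31.9% of all tested genes. PECAM1 (endothelial) was not called. Proliferation markers summed to 200 to 292 FPKM in undifferentiated cells and to 20.2, 20.6, 70.4 and 28.8 FPKM in differentiated ones, where the high value was that of male replicate 1. In these bulk samples, fewer cells of a type and less RNA per cell cannot be told apart, and the part of other cell types in the results that follow was not tested.

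**Figure D1:**
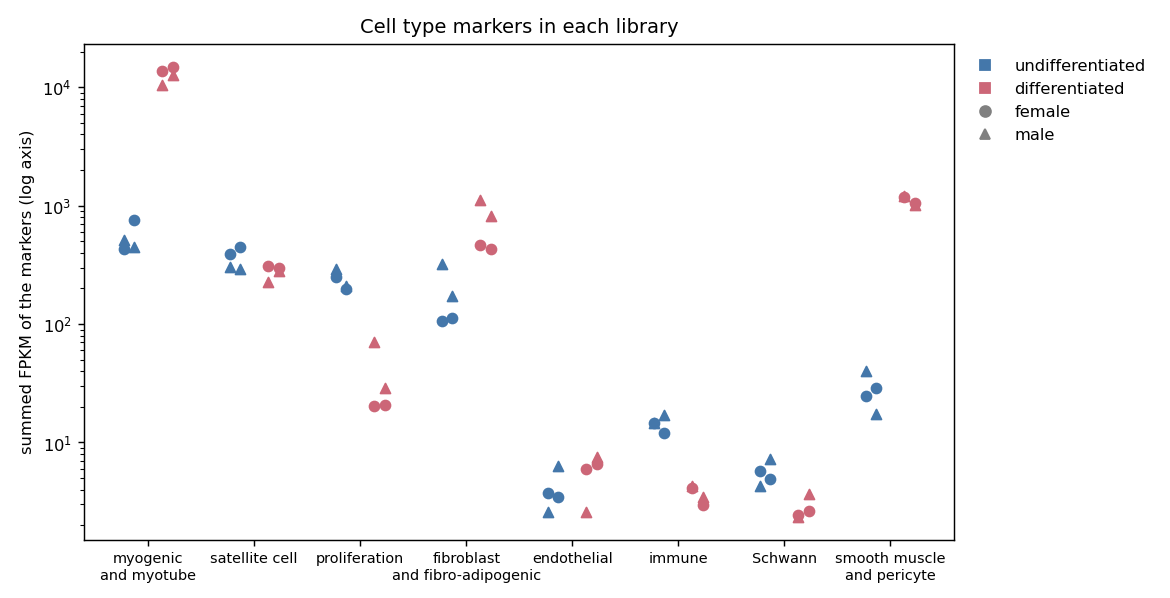
Summed FPKM of each marker list in each library, on a log axis, with undifferentiated libraries in blue and differentiated ones in red, circles for females and triangles for males; adipocyte markers, at 0 in 2 libraries, are not drawn. Fibroblast and fibro-adipogenic markers span 107 to 321 FPKM in undifferentiated and 431 to 1129 FPKM in differentiated libraries.

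The question of the main comparison was which components of the IGF system differ between undifferentiated and differentiated cells. Expression of the ligand IGF1 and of the binding proteins IGFBP5 and IGFBP3 rose, and that of IGFBP2, IGFBP4, IGFBP6 and the clearance receptor IGF2R fell. The signalling receptors IGF1R and INSR and the ligand IGF2 were not called. Thus 3 of the 10 genes rose and 4 fell, against backgrounds of 18.0% and 31.9% of all tested genes, and 7 of 10 were called in either direction against 50.0%. The median log2 difference of the 10 genes was -0.18, equal to that of all tested genes (-0.18), with values spread from -2.75 to 2.78. For the same 7 genes the ranges of the states were separate, 3 lying above and 4 below, as was so for 17.1% and 30.2% of tested genes (47.3% in all). Each of the 10 had a mean of at least 1 FPKM and was tested, but IGF1 passed that filter only through the differentiated libraries, so that its difference was in part set by the filter.

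**Figure D2:**
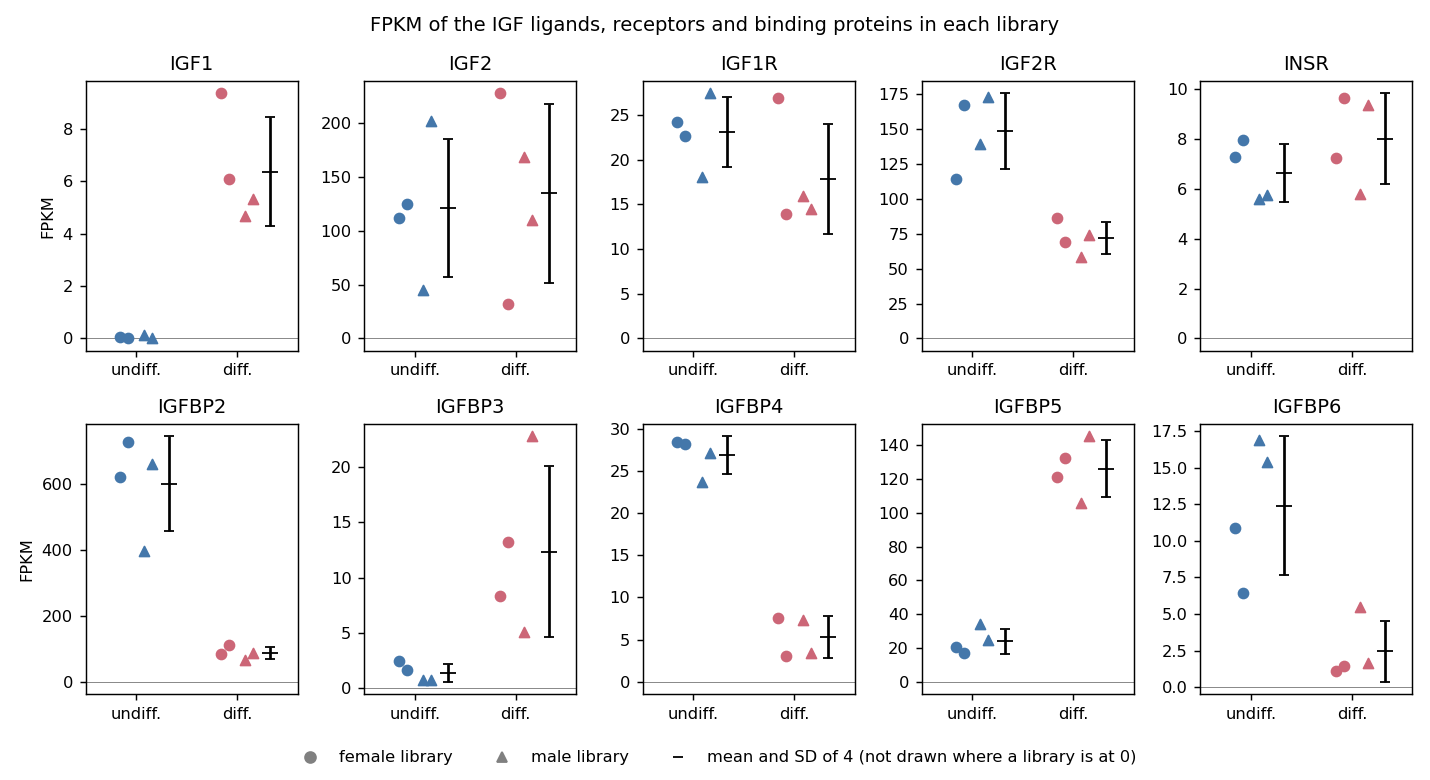
FPKM of each gene in each library, each panel with its own axis that includes 0, where circles are female and triangles male libraries and bars give the mean and SD of the 4 libraries of a state, except where a library was listed at 0. Both states separate fully for IGF1, IGF2R and the 5 binding proteins, while IGF2, IGF1R and INSR overlap.

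Among the ligands, IGF1 (ENSSSCG00000000857, Sscrofa10.2 chromosome 5, 85700101 to 85774105, plus strand) was close to undetected before differentiation. It was listed at 0 FPKM in female replicate 2 and in male replicate 2, at 0.0485 in female replicate 1 and at 0.137 in male replicate 1. Differentiated libraries stood at 9.36 and 6.07 FPKM in females and at 4.68 and 5.34 FPKM in males. All 4 lay above every undifferentiated library, and the difference was 2.78 on the log2(FPKM + 1) scale (SE 0.194, limma adjusted p = 0.000178). With values this near 0 that size rests on the added constant, and with a constant of 0.1 it was 5.51.

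IGF2 (ENSSSCG00000024883), the fetal growth factor that muscle cells secrete and respond to, was far more abundant and far more variable. Undifferentiated females were at 111 and 125 FPKM and undifferentiated males at 45.3 and 201 FPKM. The differentiated values were 227 and 32.3 FPKM in females and 168 and 110 FPKM in males. High and low libraries occurred in both states and both sexes, and the highest exceeded the lowest by 4.44 times in undifferentiated and 7.03 times in differentiated cells. The SD within groups was 1.26 on the log2 scale, above that of 96.2% of tested genes, whose median was 0.235. The difference between the states was 0.03 with a 95% interval from -1.73 to 1.79 (limma adjusted p = 0.979), an interval that holds sizeable changes in either direction. The gene model used for IGF2 covers only bases 1 to 2416 of the unplaced scaffold GL896425.1 (minus strand), at the very start of that sequence, and parts of the gene beyond it were not measured by this row.

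IGF2 exceeded IGF1 in every library. IGF1 made up 0.0436%, 0%, 0.302% and 0% of the summed FPKM of both ligands in undifferentiated cells (females first). After differentiation its share was 3.96% and 15.8% for the female and 2.71% and 4.62% for the male libraries. The 15.8% belonged to the female library with the lowest IGF2, not to the one with the highest IGF1.

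Of the receptors, IGF2R (ENSSSCG00000004044, chromosome 1, 9166935 to 9271240, minus strand), also known as the cation-independent mannose 6-phosphate receptor, was the most abundant in every library. It was at 114 and 167 FPKM in undifferentiated females and at 139 and 173 FPKM in undifferentiated males. In differentiated cells it was at 85.9, 69.3, 58.5 and 73.9 FPKM in the same order. Every differentiated library lay below every undifferentiated one, the means differed by 2.06 times, and IGF2R fell by 1.03 on the log2 scale (SE 0.170, limma adjusted p = 0.00377).

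IGF1R (ENSSSCG00000004812, chromosome 1, 153514790 to 153853782, minus strand), the main signalling receptor, did not pass the test. Undifferentiated libraries held 24.2, 22.6, 18.0 and 27.4 FPKM. Differentiated female replicate 1 held 27.0 FPKM and the other 3 differentiated libraries 13.9, 15.9 and 14.5 FPKM. The states overlapped through that single female library, which was also the shallowest by the estimate above. With all libraries the log2 difference was -0.39 (95% interval -0.96 to 0.18, limma adjusted p = 0.209). Without differentiated female replicate 1 it was -0.62 and passed the test (limma adjusted p = 0.0393). A further row named IGF1R, on scaffold JH118704.1, stayed at or under 0.143 FPKM in all libraries and was set aside.

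INSR (ENSSSCG00000013564, chromosome 2, 72388087 to 72425053, plus strand), the insulin receptor, varied over a narrow range. Its values were 7.26, 7.94, 5.60 and 5.76 FPKM in undifferentiated cells and 7.23, 9.66, 5.79 and 9.34 FPKM in differentiated ones. The states overlapped, and the log2 difference of 0.23 had a 95% interval from -0.19 to 0.64 (limma adjusted p = 0.307). The identifier table gives the symbol INSR to another row, ENSSSCG00000013566, which lies next to it on the minus strand (72275693 to 72357630) and has no symbol in the deposited table. That row stood at 7.89 ± 1.09 FPKM (SD, n = 4) in undifferentiated and 9.16 ± 1.31 FPKM in differentiated cells, with a log2 difference of 0.19 (limma adjusted p = 0.200). Neither candidate row for the insulin receptor was called, and which of them holds the gene is uncertain.

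The balance among receptors followed from these values. FPKM of IGF1R was 2.85 to 4.77 times that of INSR in undifferentiated libraries and 1.44 to 3.73 times in differentiated ones, ranges that overlap. IGF2R exceeded IGF1R by 4.72 to 7.71 times before and by 3.18 to 5.08 times after differentiation, again with overlap. These ratios are descriptions without a test.

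IGFBP2, a binding protein that can also attach to integrins and the cell surface, was the most abundant gene of the system in undifferentiated cells. Its row (ENSSSCG00000026123) lies on scaffold JH118558.1, 46034 to 68435, minus strand. Undifferentiated values were 621 and 727 FPKM in females and 397 and 661 FPKM in males. They were 84.6, 112, 66.9 and 87.2 FPKM after differentiation. The lowest undifferentiated library, male replicate 1, lay far above the highest differentiated one. The difference was -2.75 on the log2 scale (SE 0.203, limma adjusted p = 0.000222), with means 6.87 times apart.

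IGFBP5 (ENSSSCG00000025924, chromosome 15, 131680310 to 131684630, minus strand), which binds extracellular matrix and is known as a product of differentiating myoblasts, went the other way. It was at 20.3 and 16.8 FPKM in undifferentiated females and 34.1 and 24.5 FPKM in undifferentiated males, and at 121, 132, 106 and 145 FPKM after differentiation. The groups were far apart, with a log2 difference of 2.39 (SE 0.158, limma adjusted p = 0.000149) and means differing by 5.28 times. IGFBP2 and IGFBP5 are direct neighbors in the RefSeq annotation of Sscrofa11.1, although the older assembly used by the authors places IGFBP2 on an unplaced scaffold. In undifferentiated male replicate 1, IGFBP2 was lowest and IGFBP5 highest of the 4 undifferentiated libraries, and IGF2 was also lowest there. That library had the highest undifferentiated sums of fibroblast markers (321 FPKM) and proliferation markers (292 FPKM), whose part in these values was not tested. Without it IGFBP2 and IGFBP5 kept their direction and call.

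IGFBP3 (ENSSSCG00000016729, chromosome 18, 54851504 to 54856012, plus strand), the main carrier of IGFs in serum, rose from low levels. Female libraries held 2.46 and 1.70 FPKM before and 8.31 and 13.2 FPKM after differentiation. Male libraries held 0.802 and 0.742 FPKM before and 5.09 and 22.7 FPKM after. All differentiated libraries were above all undifferentiated ones, but they differed among themselves by 4.47 times. The log2 difference was 2.34 (SE 0.435, limma adjusted p = 0.00595). Its RefSeq neighbor IGFBP1, a binding protein known mainly from liver, was listed at 0 in 6 libraries and reached 0.168 FPKM at most.

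IGFBP4 (ENSSSCG00000017472, chromosome 12, 22275243 to 22290067, minus strand), known chiefly as an inhibitor of IGF action, was the most even of the set before differentiation. The 4 undifferentiated values were 28.4, 28.2, 23.7 and 27.2 FPKM, a spread of 1.20 times. Differentiated libraries fell into a higher pair, female replicate 1 at 7.55 and male replicate 1 at 7.36 FPKM, and a lower pair, at 3.03 and 3.35 FPKM. IGFBP4 fell by 2.22 on the log2 scale (SE 0.303, limma adjusted p = 0.00181), with means 5.05 times apart.

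IGFBP6 (ENSSSCG00000000261, chromosome 5, 18768002 to 18772057, plus strand), which prefers IGF2 over IGF1, had the lowest mean of the 5 binding proteins IGFBP2 to IGFBP6 after differentiation. It was at 10.9 and 6.47 FPKM in undifferentiated females and 16.9 and 15.4 FPKM in undifferentiated males. Differentiated values were 1.10, 1.48, 5.51 and 1.69 FPKM, the third being male replicate 1. The groups did not overlap, and IGFBP6 fell by 2.04 on the log2 scale (SE 0.312, limma adjusted p = 0.00279). Differentiated male replicate 1 also had the highest proliferation and fibroblast marker sums of its state, 70.4 and 1129 FPKM, and their part in its IGFBP6 value was not tested. Without that library the fall of IGFBP6 was larger, at -2.36, and the counts of 3 genes that rose and 4 that fell were the same.

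**Figure D3:**
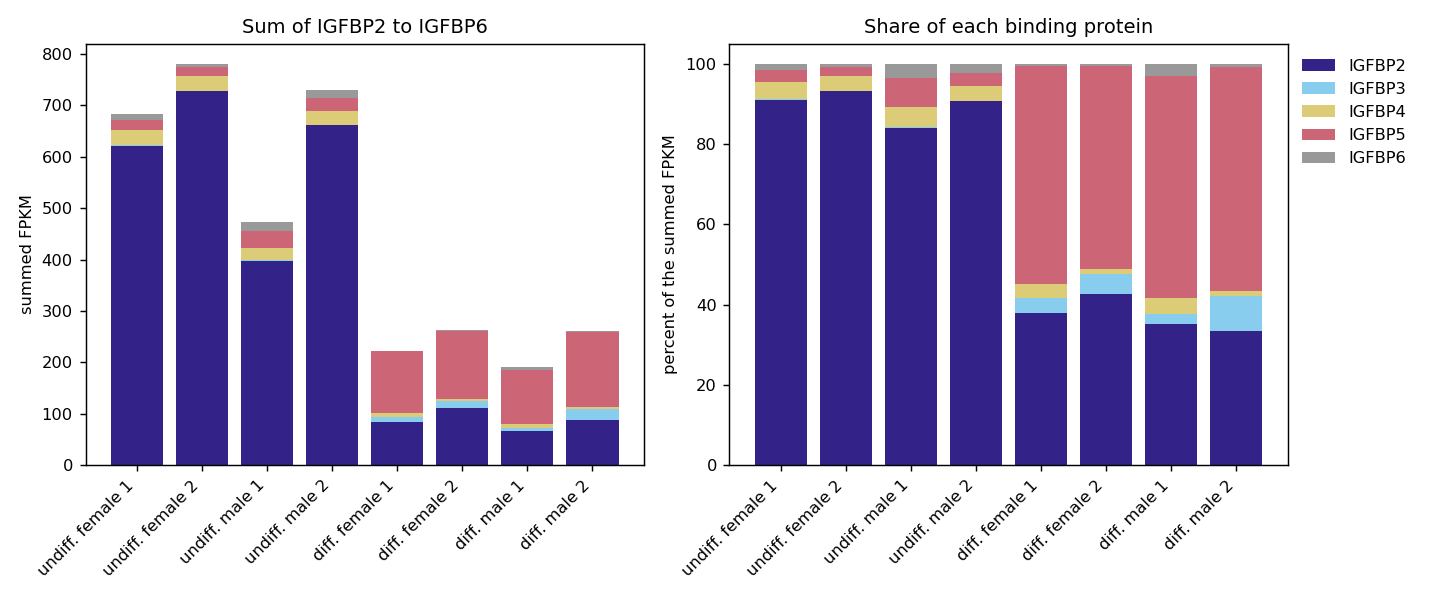
Summed FPKM of IGFBP2 to IGFBP6 in each library (left) and the percent of that sum from each binding protein (right). IGFBP2 makes 84.1% to 93.2% of the sum in undifferentiated libraries and 33.5% to 42.7% in differentiated ones, where IGFBP5 makes 50.5% to 55.8%.

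The opposite movements changed which binding protein dominated. The sum of IGFBP2 to IGFBP6 was 683, 780, 473 and 729 FPKM in undifferentiated libraries and 223, 262, 191 and 260 FPKM in differentiated ones. IGFBP2 contributed 89.7% ± 3.94 (SD, n = 4) before and 37.3% ± 4.04 after differentiation. The share of IGFBP5 was 3.92% ± 2.24 before and 54.1% ± 2.43 after. In every differentiated library IGFBP5 exceeded IGFBP2, by 1.18 to 1.67 times, while in undifferentiated libraries it was at most 0.0857 of it. IGFBP3 went from 0.212% ± 0.110 to 5.04% ± 2.65 of the sum, and IGFBP4 from 4.13% ± 0.628 to 2.42% ± 1.40. IGFBP6 stayed a minor part, at 2.03% ± 1.16 and 1.15% ± 1.16. These shares restate the values above, so no test was made. They also depend on the gene models, which span 4321 bp for IGFBP5 and 22402 bp for IGFBP2, the latter on an unplaced scaffold. Whether these models are complete was not tested.

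The order of levels in undifferentiated cells was IGFBP2 first, then IGF2R and IGF2 (mean 148 and 121 FPKM), whose ranges overlapped. IGFBP4, IGFBP5 and IGF1R followed at 26.9, 23.9 and 23.1 FPKM and could not be ordered by their ranges, then IGFBP6 and INSR, then IGFBP3 and IGF1. In differentiated cells IGF2, IGFBP5, IGFBP2 and IGF2R led, at means of 134, 126, 87.6 and 71.9 FPKM, with each range overlapping that of the next. IGF2R stood clear of IGF1R (17.8 FPKM). From IGF1R down through IGFBP3, INSR, IGF1, IGFBP4 and IGFBP6 (12.3 to 2.44 FPKM for the last 5) each gene again overlapped with the next.

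**Figure D4:**
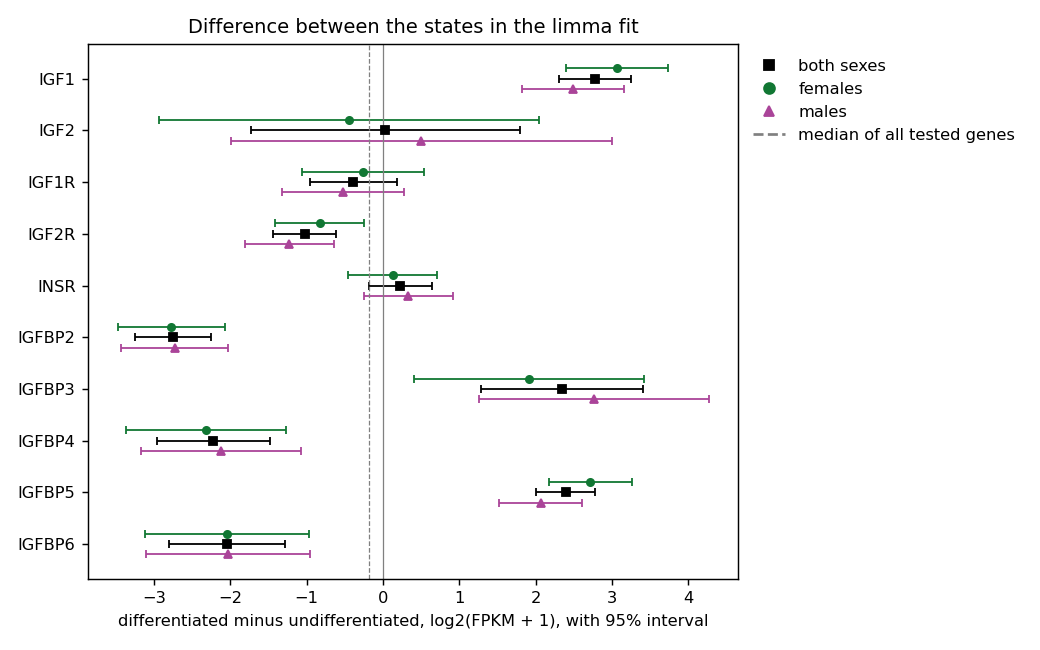
Difference between differentiated and undifferentiated cells on the log2(FPKM + 1) scale with its 95% interval, for both sexes together (squares), females (circles) and males (triangles), with a dashed line at the median of all tested genes (-0.18). Estimates for the sexes lie inside each other's intervals for all 10 genes except IGFBP5, and the widest intervals are those of IGF2.

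Comparing the sexes addressed whether the IGF system differed between cells of females and males. Differences are given as female minus male. Here 0 of the 10 genes were called averaged over the states (limma adjusted p 0.492 to 0.958), against 0.0849% of all tested genes. At an unadjusted p under 0.05 there was 1, IGFBP6, against 9.73% of all tested genes, with a log2 difference of -0.87 (limma adjusted p = 0.492). Both female libraries lay below both male ones in each state for IGFBP6, the gene with the smallest p of the 10. How many of all tested genes separated in this way was not counted, so no sex difference is read from it. Within undifferentiated and within differentiated cells 0 of 10 were called as well (0.0926% and 0.0463% of all tested genes). In undifferentiated cells the smallest p was that of IGFBP5, which was not called and had a log2 difference of -0.62 between females and males.

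Within females 6 of 10 genes were called between the states (35.8% of all tested genes) and within males 7 (33.0%). IGFBP3 lay on different sides of the threshold, with log2 differences of 1.91 in females (limma adjusted p = 0.0550) and 2.76 in males (limma adjusted p = 0.0188). A test of the difference between these effects gave -0.85 (limma adjusted p = 0.872). The difference of the state effect between the sexes was called for 0 of the 10 genes, against 0.0231% of all tested genes, and 0 passed an unadjusted p under 0.05, against 6.03%. The smallest limma adjusted p was that of IGFBP5 (0.818), with effects of 2.71 in females and 2.06 in males. With 2 libraries per group the intervals of these differences were wide, from -4.47 to 2.58 for IGF2. In males the number of genes called was 4 without undifferentiated male replicate 1 and 3 without undifferentiated male replicate 2. In females it was 7, as in males, with a pseudocount of 0.1 or without genes spanning under 300 bp, and 4 to 6 under the other alternatives.

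Profiles closest to those of the called genes were sought among 9283 tested genes with a symbol, by the root mean square difference of centered log2 values over the 8 libraries. IGFBP2 was nearest to TIMP-2, a metalloprotease inhibitor (0.195), followed by PDGFA, a growth factor (0.199), and HTRA3, a secreted protease (0.269). TIMP-2 was at 769 ± 123 FPKM before and 127 ± 5.95 FPKM after differentiation (SD, n = 4). The nearest profiles to IGFBP5 were UCP2, a mitochondrial carrier (0.231), PARM1 (0.238) and ABTB2 (0.243). IGF1 was nearest to PHYHIPL (0.156), SH3PXD2A, an adaptor of invasive cell protrusions (0.172), and HHATL (0.185). For IGFBP4 they were CLIP2, EVC and PFAS (0.194 to 0.237), and for IGFBP6 PNP, FOSL1 and KIF4A (0.209 to 0.256). IGF2R was nearest to CDK9, a kinase of transcription elongation (0.117), LARP6 (0.117) and MXD4 (0.136). IGFBP3 had ITGBL1 (0.273), SOCS1 (0.426) and PRSS8 (0.431) nearest. The closest profile to IGF2 was SLC9A8 at 0.571, so no tested gene with a symbol came nearer than that to the uneven pattern of IGF2. The measure reads mainly the gap between the states and says nothing on its own of shared control.

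The rest of the pathway was followed through 8 lists with 71 genes, of which 65 were found and 56 tested. Of these 19 rose and 16 fell, against the same backgrounds of 18.0% and 31.9%, and their median log2 difference was 0.13 against -0.18 for all tested genes. After median-ratio scaling 25 rose and 8 fell, while of all 12977 genes tested under that scaling 3156 rose and 3005 fell. The direction of the smaller changes below therefore depends on scaling, and the genes concerned are named. Paired means are given as undifferentiated, then differentiated, ± SD over the 4 libraries of each state.

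**Figure D5:**
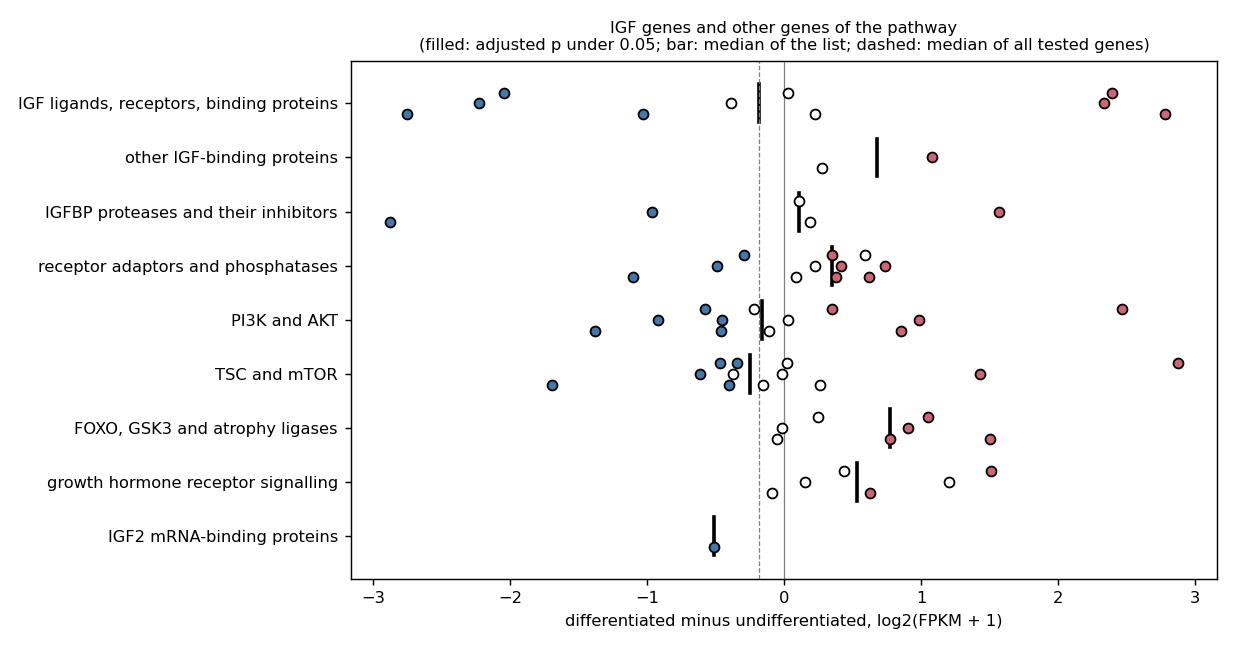
Log2 difference between the states for each tested gene of the IGF set and of the other pathway lists, where filled points passed the test (red higher, blue lower in differentiated cells), black bars are list medians and the dashed line is the median of all tested genes. Of the 10 IGF genes 3 that rose and 4 that fell lie on opposite sides of 3 open points, and the 4 filled points of the FOXO list are all higher.

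Among other binding proteins, IGFBP7, a secreted protein with weak affinity for IGFs, rose, with means of 13.8 ± 2.57 and 30.2 ± 5.95 FPKM and a log2 difference of 1.08 (adjusted p = 0.00344, limma). It was 1 of 2 tested members of its list. IGFALS, the acid-labile subunit of the serum IGF complex, was at 2.53 ± 1.56 and 3.09 ± 0.847 FPKM and was not called, and IGFBPL1 stayed under 1 FPKM. Counted with IGFBP1 and IGFBP7 in the sum, IGFBP2 made 33.0% and IGFBP5 47.7% of the binding proteins in differentiated cells, and IGFBP7 11.7%.

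Of 5 tested genes for proteases that cut binding proteins and for their inhibitors, 1 rose and 2 fell. ADAM9, a membrane protease, fell, with means of 230 ± 22.1 and 30.9 ± 6.96 FPKM and a log2 difference of -2.87 (adjusted p = 2.98e-05, limma), as did HTRA1, a secreted serine protease, at 71.3 ± 5.50 and 37.8 ± 14.0 FPKM (log2 difference -0.97, adjusted p = 0.00260, limma). PAPPA, which cleaves IGFBP4 and frees the bound IGF, was at 0.0973 to 0.633 FPKM in undifferentiated cells. It rose to 0.914 and 1.72 FPKM in differentiated females and 8.51 and 3.07 FPKM in males (log2 1.57, limma adjusted p = 0.0108). PAPPA passed the filter on low values only through the differentiated libraries, and without differentiated male replicate 1, the library at 8.51 FPKM, it no longer passed it. STC2, an inhibitor of PAPPA, was not called at 11.5 ± 0.881 and 13.4 ± 2.48 FPKM, although it was with median-ratio scaling (log2 0.38, limma adjusted p = 0.0197) and quantile normalization (0.0243). PAPPA2, STC1 and ADAM28 remained under 1 FPKM.

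Receptor adaptors moved by smaller amounts, with 5 of 11 up and 3 down. The number of genes of this list that rose was 1 without differentiated female replicate 1 or 2, 2 without differentiated male replicate 2 or either undifferentiated male library, and 3 without either undifferentiated female library. These counts need not hold the same genes, and without undifferentiated female replicate 2 they include SH2B2 (limma adjusted p = 0.0396), which was not called with all libraries (0.0520). IRS1, the docking protein that links IGF1R and INSR to PI3K, fell, with means of 52.8 ± 4.52 and 24.1 ± 3.33 FPKM and a log2 difference of -1.10 (adjusted p = 0.000403, limma). GRB2, an adaptor toward RAS, rose, with means of 41.3 ± 3.45 and 69.9 ± 9.36 FPKM and a log2 difference of 0.74 (adjusted p = 0.00284, limma), and the adaptor SHC1 fell with a log2 difference of -0.49 (limma adjusted p = 0.00474). The rises of GAB1 (log2 0.62) and GRB10 (log2 0.41) and the fall of PTPN11 (log2 -0.29) were less stable. GRB10, an inhibitor of both receptors, lost its call (limma adjusted p = 0.0406) without any 1 library other than differentiated male replicate 1 (0.0511 to 0.117), GAB1 (limma adjusted p = 0.0173) without undifferentiated female replicate 2, undifferentiated male replicate 1 or either differentiated female library (0.0504 to 0.0584), and PTPN11 (limma adjusted p = 0.0256) without undifferentiated female replicate 1, undifferentiated male replicate 2, differentiated female replicate 2 or either differentiated male library (0.0514 to 0.0831). PTPN11 also lost it under median-ratio scaling (0.431) and quantile normalization (0.0966). IRS4 and GRB14 remained under 1 FPKM, and IRS2 was not analysed here.

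In the PI3K and AKT list 4 of 12 tested genes rose and 5 fell, 2 of the falls being left after median-ratio scaling. The falls numbered 2 without undifferentiated male replicate 1, and 3 without undifferentiated female replicate 1, undifferentiated female replicate 2, undifferentiated male replicate 2, differentiated female replicate 2 or differentiated male replicate 1. INPPL1, the lipid phosphatase SHIP2 that opposes PI3K signalling, rose most, with means of 32.2 ± 6.67 and 183 ± 37.7 FPKM and a log2 difference of 2.47 (adjusted p = 8.77e-05, limma). The catalytic subunits went apart. PIK3CA rose, with means of 15.0 ± 0.615 and 28.1 ± 4.51 FPKM and a log2 difference of 0.85 (adjusted p = 0.000727, limma), and PIK3CB fell, with means of 5.37 ± 0.982 and 1.44 ± 0.324 FPKM and a log2 difference of -1.38 (adjusted p = 0.000899, limma). The regulatory subunit PIK3R2 fell (log2 -0.92, limma adjusted p = 0.00157), the AKT phosphatase PHLPP1 rose (log2 0.98, limma adjusted p = 0.00888) and its relative PHLPP2 fell (log2 -0.58, limma adjusted p = 0.0251). The call of PHLPP2 ended under median-ratio scaling (0.0692) and without undifferentiated female replicate 1, either undifferentiated male library, differentiated female replicate 1 or differentiated male replicate 1 (0.0502 to 0.0803). PIK3CD, a catalytic subunit known from blood cells, remained under 1 FPKM, and AKT1 was not analysed here.

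Of 12 tested genes of the TSC and mTOR list, 2 rose and 5 fell, with 2 falls left after median-ratio scaling. DEPTOR, an inhibitory partner of mTOR, was at 1.77, 6.32, 1.27 and 2.18 FPKM in undifferentiated libraries and at 30.3, 22.1, 19.7 and 27.2 FPKM in differentiated ones (log2 2.87, limma adjusted p = 0.00103). RPS6KB1, the S6 kinase downstream of mTOR, rose, with means of 16.5 ± 1.53 and 46.1 ± 3.77 FPKM and a log2 difference of 1.43 (adjusted p = 0.000134, limma). EIF4EBP1, a repressor of translation that mTOR inactivates, fell, with means of 359 ± 24.1 and 112 ± 24.2 FPKM and a log2 difference of -1.69 (adjusted p = 0.000404, limma). RPTOR, the scaffold of mTOR complex 1, fell with a log2 difference of -0.61 (limma adjusted p = 0.00694). EIF4E, the cap-binding factor, fell with one of -0.46 (limma adjusted p = 0.00827) and missed the threshold after median-ratio scaling (0.0528).

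AKT signalling restrains FOXO factors and GSK3 and, through FOXO, the muscle ubiquitin ligases of atrophy. In the FOXO, GSK3 and atrophy list 4 of 7 tested genes rose and 0 fell (limma, with 0 falls also at an unadjusted p under 0.05 and under each alternative run). Among all tested genes 18.0% rose and 31.9% fell. With 7 genes here, and 6 in the list that follows, the absence of falls carries little weight. FOXO4, a transcription factor that AKT keeps out of the nucleus, rose, with means of 4.54 ± 1.79 and 14.1 ± 1.55 FPKM and a log2 difference of 1.50 (adjusted p = 0.000662, limma). The muscle ubiquitin ligases TRIM63 and FBXO32 also rose. TRIM63 was at 35.2 ± 8.65 and 75.6 ± 24.9 FPKM (adjusted p = 0.00562, limma) and FBXO32 at 8.21 ± 1.88 and 16.4 ± 4.81 FPKM (adjusted p = 0.00524, limma). Of 6 tested genes of growth hormone receptor signalling, the route by which growth hormone induces IGF1 in liver and muscle, 2 rose and 0 fell (limma, with 0 falls also at an unadjusted p under 0.05). The receptor GHR rose, with means of 2.87 ± 1.43 and 9.59 ± 1.25 FPKM and a log2 difference of 1.51 (adjusted p = 0.00324, limma) and so did its mediator STAT5B, at 6.63 ± 0.938 and 10.8 ± 1.22 FPKM (log2 difference 0.63, adjusted p = 0.0105, limma). IGF2BP2, an RNA-binding protein of the IGF2 mRNA-binding family, fell, with means of 57.9 ± 7.82 and 40.7 ± 8.07 FPKM and a log2 difference of -0.51 (adjusted p = 0.0160, limma). That call ended under median-ratio scaling (0.0795) and without undifferentiated female replicate 2 (0.0533) or undifferentiated male replicate 2 (0.0515). Its relative IGF2BP1 remained under 1 FPKM, and IGF2BP3, TSC1, FOXO6 and CISH were not analysed here.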

How the data were processed

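RNA was read as 100-bp paired ends from libraries prepared with the SMARTer stranded pico kit, per the labels' protocols, while the labels give the molecule as polyA RNA. Values were deposited as FPKM per gene by the authors. The submitters' processing notes name cutadapt 1.6, TopHat2 2.0.12.1, Cufflinks 2.2.1 and the build Sscrofa10.2. Their settings, the use of strand and the annotation release are not given in the sources used here. No deposited gene overlapped any of the 10 genes in position (0 overlaps).

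Values were taken as log2(FPKM + 1), and the 12963 genes whose mean reached 1 FPKM were tested with limma 3.58.1 in R 4.3.3 (1 mean per group and a mean-variance trend, without a block; residual degrees of freedom 4, prior 2.09). Contrasts were differentiated against undifferentiated, female against male, and their interaction. Two-sided p-values were Benjamini-Hochberg adjusted over all tested genes, an adjusted p under 0.05 was called, and "rose" and "fell" refer to such calls. ± gives the SD. The fit was tested on simulated data with independent values and far fewer changed genes than were called here. That test does not vouch for the calls given here. Symbols were matched by name in the table, with the highest mean where a symbol repeated, and otherwise through an Ensembl identifier table. Up to 3 called genes per direction were named from each pathway list, together with untested members, and the 3 nearest profiles per gene. Genes outside that rule (STC2, SH2B2, IGFALS, the marker genes and some nearest profiles' values) were named after their values were seen. Replicate numbers were not taken as pairs, since no label ties same-numbered libraries together. Alternatives were a pseudocount of 0.1, no filter, median-ratio scaling, quantile normalization, a replicate block, states without sex, no trend, no genes spanning under 300 bp, and each library left out. The 10 genes and the lists were chosen with earlier results of these data known. No sequences were used here.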

Additional observations from a re-analysis of the deposited data

Results flagged for a closer look

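Of 74 sets of 4 libraries (37 named genes in 2 states), 4 held a library far from the other 3 by Dixon's gap-to-range ratio, where chance alone marks about 1 in 20 such sets. IGF1R was at 27.0 FPKM in differentiated female replicate 1, against 13.9 to 15.9 FPKM in the other differentiated libraries. PIK3CB in the same library was at 0.957 FPKM, against 1.56 to 1.65 FPKM. In differentiated male replicate 1, IGFBP6 was at 5.51 FPKM, against 1.10 to 1.69 FPKM, and EIF4EBP1 at 148 FPKM, against 96.3 to 104 FPKM.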

How the results depend on the processing

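The 3 rises and 4 falls among the 10 IGF genes kept direction and call under all 16 alternatives. Only IGF1R changed its call, as given above, which made 5 falls without differentiated female replicate 1. Deviations of same-numbered libraries of a sex had a Pearson's r of 0.0684 in females and -0.0264 in males, and a Spearman's rho of 0.131 and 0.125, over 12963 genes, which are not independent replicates. With the replicate block 3 rose and 4 fell, and in the pathway lists 17 rose and 14 fell. No block could be fitted for the effect of sex, since each block lies within 1 sex. With median-ratio scaling 8 genes of the pathway lists fell in place of 16, while falls among all tested genes went from 4137 to 3005. Genes called between the states ranged from 3 to 7 in males and from 4 to 6 in females with libraries left out, which leaves 1 library in a group whose spread is assumed to be like that of the others. With IGFBP1 and IGFBP7 in the sum, shares in differentiated cells moved to 33.0% for IGFBP2 and 47.7% for IGFBP5. Sex and interaction gave 0 called IGF genes under each alternative run. Depth in reads is unknown and limits genes listed near 0, such as IGF1 before differentiation.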
